A study of Mus musculus with 10 samples.

Results

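The nuclear genes for the subunits of oxidative phosphorylation were followed by ATAC-seq, which reads accessible DNA from the places where a transposase has inserted its adapters. Members were all autosomal protein-coding genes whose symbols start with Nduf, Uqcr, Atp5 or Cox4 to Cox8, together with Sdha, Sdhb, Sdhc and Sdhd. Their peaks were those inside, or within 1 kb of, the gene bounds in the RefSeq annotation of GRCm38.p6. Of 96 genes found by symbol, 3 lie on the X chromosome and were left out, which gave 93 members. Of these, 89 had at least 1 peak and 4 had none (Cox6a2, Cox8c, Ndufb4b and Ndufb4c). Together they held 136 of the 122984 peaks in the table, and 64 of the 89 genes held a single peak. Of the 136 peaks, 134 passed the filter on low counts and were tested. The symbol rule gave 38 genes of complex I, 8 assembly factors of complex I, 4 genes of complex II, 8 of complex III, 18 of complex IV and 17 of complex V.

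MAP cells are immortalized adipocyte progenitors of the mouse, which the labels name as progenitors although treatment was given to differentiated adipocytes. All groups, the control included, were differentiated with insulin, isobutylmethylxanthine, dexamethasone and rosiglitazone, then kept in insulin and rosiglitazone. At day 7 to 8 the adipocytes were treated, per the labels, to induce browning, in 5 groups of 2 libraries each: a vehicle control, forskolin at 3 lengths (4 hours, 1 day and 3 days), and rosiglitazone over 3 days. Forskolin activates adenylyl cyclase and so raises cyclic AMP, the messenger of adrenergic signalling in fat, while rosiglitazone binds and activates PPARγ, a nuclear receptor. Each library was made from 10000 sorted nuclei with 12 cycles of amplification. Libraries are named here by the running numbers of the table's columns: control S1 and S2, 4 hours S3 and S4, 1 day S5 and S6, 3 days S7 and S8, rosiglitazone S9 and S10. Separate cultures are not stated for the 2 libraries of a group, so the p-values measure the spread between libraries, which may be technical. No time is given for the control, so the length of treatment cannot be told apart from days in culture.

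Oxidative phosphorylation takes place in the inner mitochondrial membrane. Complexes I to IV pass electrons from NADH and succinate to oxygen. Complexes I, III and IV also pump protons, and complex V uses the proton gradient to make ATP. Most subunits are encoded in the nucleus, and in brown and beige fat the chain is run at a high rate while uncoupling protein lets the gradient drain as heat. Most of these genes are expressed in nearly all cells from promoters rich in CpG, while a few, such as Cox7a1 and Cox8b, encode isoforms typical of muscle and brown fat.

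The libraries held 10410233 to 18935287 counts in peaks. Promoter peaks, meaning peaks that overlap the stretch from 250 bases before to 50 after a RefSeq gene start, took 38.0% and 39.3% of counts in the controls, 34.4% and 35.1% at 4 hours, 33.5% and 35.0% at 1 day, 34.5% and 37.8% at 3 days, and 37.0% and 38.5% with rosiglitazone. The 95% Wilson intervals of these shares were at most 0.0590 percentage points wide and cover counting error only. The library S8 thus lay nearer to the controls than S7, its partner at 3 days. All 6 adipocyte markers had peaks, with a summed level of 400.3 to 562.8 CPM (counts scaled to the library size after normalization). The 5 progenitor or fibroblast markers summed to 128.5 to 162.6 CPM. The lists differ in genes and peaks, so these sums do not rank cell types. Of the 5, 1 fell at 4 hours and 1 with rosiglitazone, where 23.5% and 2.71% of all genes fell. Of the 6 adipocyte markers, 2 fell at 4 hours and 3 at both 1 day and 3 days of forskolin. At these times 23.5%, 33.5% and 8.22% of all genes fell. With rosiglitazone 2 rose, where 1.27% of all genes rose. With scaling factors from peaks near gene ends, described below, 1 fell and 2 rose at 4 hours. Under those factors 1 fell at 1 day and 1 at 3 days, and 3 rose with rosiglitazone. For the 5 progenitor or fibroblast markers they gave 2 risen at 4 hours, 3 at 1 day and 0 fallen. Shares of all genes under them are not given here. Of 4 brown or beige markers, 2 had peaks, and Ucp1 and Dio2 had none. Ppargc1a rose in each treatment, while Cidea had no call. Cidea read 5.15 and 5.28 CPM in the controls, 3.88 and 4.71 at 4 hours and 4.75 and 5.96 at 1 day. It read 6.60 and 4.83 at 3 days, and 6.12 and 5.99 with rosiglitazone. At 4 hours its log2 fold change was -0.28 ± 0.24 (adjusted p = 0.39). Macrophage markers (4 of 5 with peaks, Adgre1 without) summed to 32.4 and 32.1 CPM in the controls, 53.8 and 52.1 at 4 hours and 38.9 to 45.8 in the other treated libraries. Of these 4, Csf1r rose in each treatment (7.26 and 8.99 CPM in the controls, 23.6 and 21.8 at 4 hours) and Cd68 at 4 hours and with rosiglitazone. The 3 endothelial markers summed to 49.8 and 58.4 CPM in the controls and 47.9 to 60.2 in the treated libraries; Cdh5 rose at each forskolin time (2.02 and 2.06 CPM in the controls, 13.3 and 8.46 at 4 hours), and Pecam1 fell at 1 day. Open chromatin near a marker is not expression, and their part in the results below was not tested.

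Of the 93 members, 75 had an entry in the RefSeq promoter table of GRCm38.p6, and 71 of these promoters held a peak. Promoters of 6 genes are shown 5′ to 3′ on the gene's strand, 300 bases each, in 2 sets. Atp5g1 and Cox6b1 are shown because their promoter peaks fell, and the tissue-restricted isoforms Cox8b and Cox7a1 beside their broadly expressed counterparts Cox8a and Cox7a2 so that the sequences of both kinds can be compared; no called change lay in the Cox8b or Cox7a1 stretch. Cox8b lies on the minus strand at chr7:140900397-140900696, Cox8a on the minus strand at chr19:7217567-7217866, Cox7a1 on the plus strand at chr7:30183921-30184220, Cox7a2 on the minus strand at chr9:79759804-79760103, Atp5g1 on the minus strand at chr11:96075582-96075881 and Cox6b1 on the minus strand at chr7:30626065-30626364. Capitals mark exact matches, on either strand, to the ETS letters CCGGAAG or the SP/KLF letters GGGCGG.
Cox8b: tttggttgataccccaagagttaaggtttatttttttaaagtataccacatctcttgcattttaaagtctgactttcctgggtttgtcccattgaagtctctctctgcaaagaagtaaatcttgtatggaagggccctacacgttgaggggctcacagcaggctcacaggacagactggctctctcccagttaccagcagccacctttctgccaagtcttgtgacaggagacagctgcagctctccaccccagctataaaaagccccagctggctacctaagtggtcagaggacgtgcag
Cox8a: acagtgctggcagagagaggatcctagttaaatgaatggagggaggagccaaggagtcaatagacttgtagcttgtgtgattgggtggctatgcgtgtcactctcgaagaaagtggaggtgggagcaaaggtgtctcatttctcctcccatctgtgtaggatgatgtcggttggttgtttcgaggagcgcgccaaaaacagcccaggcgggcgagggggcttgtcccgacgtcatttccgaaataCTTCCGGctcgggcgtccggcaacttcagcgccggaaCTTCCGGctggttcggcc
Cox7a1: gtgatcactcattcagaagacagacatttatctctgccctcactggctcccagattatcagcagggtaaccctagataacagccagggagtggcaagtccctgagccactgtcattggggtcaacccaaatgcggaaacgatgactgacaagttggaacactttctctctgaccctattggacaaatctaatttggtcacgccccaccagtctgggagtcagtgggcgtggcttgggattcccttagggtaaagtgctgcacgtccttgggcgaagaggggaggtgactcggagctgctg
Cox7a2: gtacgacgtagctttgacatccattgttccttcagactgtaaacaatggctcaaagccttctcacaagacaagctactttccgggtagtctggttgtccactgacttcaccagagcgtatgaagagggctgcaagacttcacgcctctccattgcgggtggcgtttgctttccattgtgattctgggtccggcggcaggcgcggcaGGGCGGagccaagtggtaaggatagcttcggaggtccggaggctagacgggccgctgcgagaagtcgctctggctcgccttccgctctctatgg
Atp5g1: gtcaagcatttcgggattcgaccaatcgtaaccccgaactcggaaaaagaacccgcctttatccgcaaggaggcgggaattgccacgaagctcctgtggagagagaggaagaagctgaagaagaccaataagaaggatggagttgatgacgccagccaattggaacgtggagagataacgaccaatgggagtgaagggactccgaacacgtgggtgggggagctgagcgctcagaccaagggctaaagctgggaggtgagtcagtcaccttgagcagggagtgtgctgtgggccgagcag
Cox6b1: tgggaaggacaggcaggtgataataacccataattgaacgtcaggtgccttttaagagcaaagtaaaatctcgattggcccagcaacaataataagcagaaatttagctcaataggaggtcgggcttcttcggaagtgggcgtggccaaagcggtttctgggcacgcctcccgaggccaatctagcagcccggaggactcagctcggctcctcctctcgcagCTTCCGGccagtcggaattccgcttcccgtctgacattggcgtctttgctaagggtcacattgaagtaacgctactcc
Cox8b was the one of the 6 whose promoter entry held no peak; its peak lay inside the gene.

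Exact letters of 6 motifs were searched on both strands of the 80 promoter entries of members (5 genes had more than 1) and of all 21263 entries of protein-coding genes, as a description. The NRF1 letters GCGCATGCG stood in 12.5% of member entries and 2.35% of all entries. The ETS letters CCGGAAG stood in 23.8% against 11.6%, the YY1 letters AAGATGGC in 13.8% against 3.05%, the ERR letters AAGGTCA in 10.0% against 4.08%, and the CRE letters TGACGTCA in 5.00% against 2.23%. The SP/KLF letters GGGCGG stood in 43.8% of member entries and 46.2% of all. Matches of different motifs overlapped in 1 member entry. The 10 NRF1 matches were in Ndufa8, Ndufaf5, Ndufaf4, Atp5k, Cox6a1, Atp5l, Uqcrc1, Uqcr11, Atp5g2 and Ndufa11. Those with CRE letters were Ndufa10, Ndufb2, Uqcrfs1 and Ndufa11, and their promoter peaks had a median log2 fold change of -0.41 at 1 day, against -0.29 for the 67 member promoter peaks without them; 4 peaks are too few to read a difference from. The 19 member promoter peaks with ETS letters had a median of -0.25 and the other 53 a median of -0.30 (a peak over 2 entries can count on both sides).

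The members' promoter peaks were open in every group. Over the 10 libraries their median level was 31.9 CPM, or 36.5 CPM per kb of peak, against 29.5 CPM and 31.3 CPM per kb for all 9966 promoter peaks and 2.59 CPM for all peaks. Per kb of peak, Ndufa6 (102), Atp5b (101), Atp5g1 (100.4) and Ndufs8 (90.4) were the highest, and Ndufaf1 (7.60), Ndufc2 (8.08) and Ndufs4 (8.14) the lowest. The 65 member peaks away from the gene's own promoter entry had a median of 3.98 CPM; they include all peaks of the 18 genes without an entry. Sharing was common: 22 of the 71 promoter peaks also overlapped the promoter entry of another protein-coding gene, such as Gabpa at Atp5j, Tssk6 at Ndufa13 and Timm8b at Sdhd, and counts there cannot be split between both genes.

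After forskolin many promoters of these genes fell slightly, in shares near or below those of all promoters (19.7% against 27.3% at 4 hours, 40.8% against 38.1% at 1 day and 9.86% against 8.02% at 3 days), and their median change was near 0 under another scaling given below. A few peaks inside or beside Ndufa10 and Ndufa8 rose, as did a weak peak in Cox5a whose calls were lost when single libraries were left out. At 4 hours 23 of the 134 member peaks fell and 5 rose (edgeR's quasi-likelihood test, Benjamini-Hochberg adjusted over all peaks, called below 0.05), while 12.8% of all tested peaks fell and 18.5% rose. At 1 day 37 fell and 4 rose, where 9.79% of all peaks fell and 12.9% rose. At 3 days 10 fell and 4 rose, where 5.32% of all peaks fell and 8.5% rose. With rosiglitazone 4 fell and 1 rose, where 3.32% of all peaks fell and 3.23% rose. In one joint test of the 5 groups, 40 of 134 member peaks differed (29.9%), against 45.8% of all peaks and 42.7% of all promoter peaks. These comparisons share the control libraries.

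Falls were common among the promoters of all genes. Of the 71 member promoter peaks, 14 fell at 4 hours, 29 at 1 day, 7 at 3 days and 1 with rosiglitazone, against 27.3%, 38.1%, 8.02% and 3.94% of all promoter peaks; the members' shares were 19.7%, 40.8%, 9.86% and 1.41%. No member promoter peak rose by edgeR or by DESeq2 in these comparisons, and at an unadjusted p under 0.05 the number higher was 0, 0, 1 and 0. Their median log2 fold changes were -0.18, -0.30, -0.19 and -0.08, beside -0.24, -0.29, -0.18 and -0.10 for all promoter peaks, while the median of all peaks moved by at most 0.04. Summed over all peaks of a gene, 19 of 89 member genes fell at 4 hours, 38 at 1 day and 6 at 3 days, and 1 rose at 3 days. Over all 16244 genes tested the shares that fell were 23.5%, 33.5% and 8.22%, and those that rose 7.89%, 6.1% and 2.95%. With rosiglitazone no member gene was called by edgeR, where 2.71% of all genes fell and 1.27% rose; 7 were at an unadjusted p under 0.05 (6 lower, 1 higher), and DESeq2 called 1. Neither fewer nuclei with an open site nor less opening per nucleus can be told apart in these bulk libraries.

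**Figure D1:**
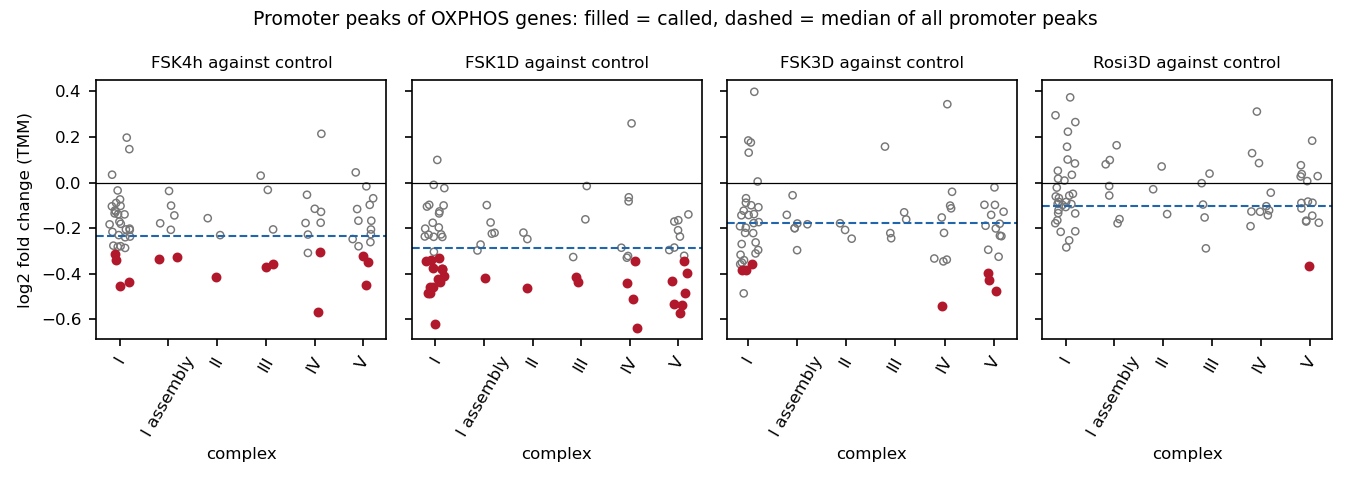
Each point is the log2 fold change (y axis) of a member gene's promoter peak by complex (x axis) in 4 comparisons against control; filled points passed the test, and the dashed line is the median of all promoter peaks. In the FSK1D panel, 29 of 71 points are filled, all below 0, and most points lie around the dashed line at -0.29.

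The size and direction of this shift depended on the scaling between libraries. The trimmed-mean (TMM) factors were taken over all peaks, and the share of counts in promoters was lower after forskolin, as given above. When the factors came from peaks near gene ends alone, the medians of the member promoter peaks became 0.02 at 4 hours, -0.05 at 1 day, -0.04 at 3 days and 0.00 with rosiglitazone, and the median of all peaks moved up to 0.20, 0.29, 0.17 and 0.08. Under that scaling 1 member promoter peak fell and 1 rose at 4 hours, 5 fell at 1 day, 2 at 3 days and 1 with rosiglitazone. With library size alone the medians were -0.09, -0.14, -0.09 and 0.02, and the median of all peaks moved to 0.10, 0.19, 0.11 and 0.10. Changes of single promoters below are therefore best read against the median of all promoter peaks in the same comparison.

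**Figure D2:**
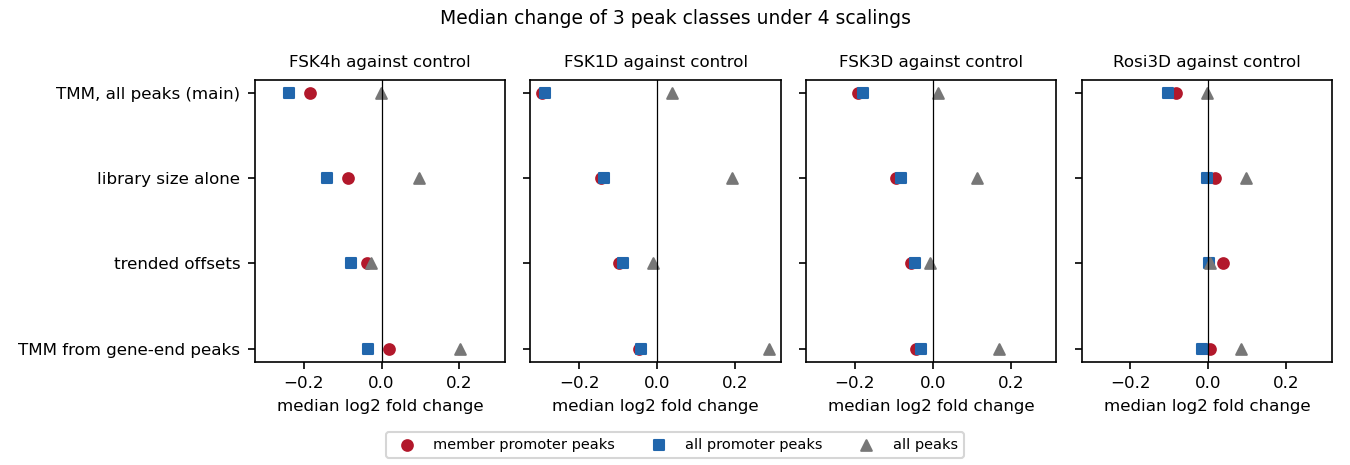
Median log2 fold change (x axis) of member promoter peaks, all promoter peaks and all peaks under 4 scalings (y axis), 1 panel per comparison. Circles and squares lie close together in every row, and both move to near 0 when the factors come from gene-end peaks.

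Single libraries also moved the counts. Over all comparisons members gave 174 calls of a peak or a gene, of which 59 held without the control S2, the fewest for any library left out, and 167 without S8; every one kept its direction in these fits. At 4 hours, leaving out S2, S3 or S4 left 10, 8 and 16 member peaks called in place of 28, and leaving out S1, S2, S3 or S4 left 11, 1, 1 and 8 genes in place of 19. At 1 day, leaving out S2 or S5 left 15 and 16 peaks in place of 41, and 11 and 10 genes in place of 38. At 3 days the library S8 mattered most: without it 37 peaks (33 down, 4 up) and 36 genes were called, in place of 14 and 7, while 4, 6 and 9 peaks remained called without S2, S7 or S9, and 4, 0 and 3 genes without S1, S2 or S7. With rosiglitazone, 0 to 3 peaks were called without any 1 of S1, S2, S3, S4, S5, S6, S9 or S10, in place of 5, and 6, 6 and 1 genes without S7, S8 or S10, in place of 0.

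**Figure D3:**
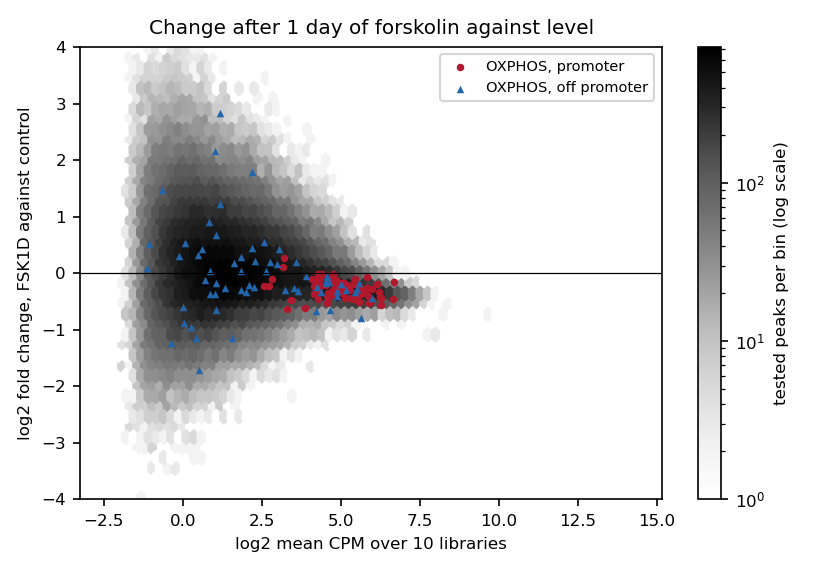
Log2 fold change after 1 day of forskolin against control (y axis) by log2 mean CPM (x axis) for all tested peaks (grey bins, darker for more peaks), with the members' promoter peaks as circles and their other peaks as triangles. Circles sit at the high end of the level with small changes below 0; the largest rises are triangles at low levels, at Ndufa10.

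Complex I takes electrons from NADH. Of its 36 genes with peaks, 6 fell at 4 hours, 14 at 1 day and 3 at 3 days. At 3 days 1 rose. Over all genes tested 23.5%, 33.5% and 8.22% fell at these times and 7.89%, 6.1% and 2.95% rose. With factors from gene-end peaks the complex I numbers were 0 down and 2 up, 5 down and 2 up, and 2 down and 2 up. Shares of all genes under those factors are not given here. The median of all peaks moved up under them, as described above. The counts for complex I include Ndufa4l2 by its symbol, although its product is a paralog of Ndufa4, a subunit associated with complex IV. It fell by 0.28 on the log2 scale at 4 hours and at 1 day (adjusted p = 0.046 and 0.039), calls that were lost with factors from gene-end peaks (0.65 and 0.86) and without S2 (0.30 and 0.27), among other libraries. The largest rises of all members lay here, away from promoters. Inside Ndufa10, an accessory subunit, the peak at chr1:92440153-92440391, centred 33486 bases downstream of the gene start, read 0.202 and 0.660 CPM in the controls, 4.21 and 5.25 at 4 hours, 4.13 and 2.39 at 1 day, 2.53 and 1.90 at 3 days, and 0.826 and 0.556 with rosiglitazone. All 6 forskolin libraries lay above all 4 others. The log2 fold change against control was 3.37 ± 0.46 (SE) at 4 hours (adjusted p = 1.3e-08), 2.83 ± 0.48 at 1 day (4.6e-06) and 2.29 ± 0.51 at 3 days (0.00069); the control counts behind it were 2 and 8 reads, so its size is loosely bounded. A further peak in the same gene, at chr1:92448408-92448707, rose as well (log2 fold change 1.58, 2.17 and 1.96 at the 3 times); the 4-hour call was lost without S2 or S3 (adjusted p = 0.20 and 0.11) and the 3-day call without S2 (0.11). The Ndufa10 promoter peak at chr1:92473356-92474446 went the other way, with 28.8 and 27.6 CPM in the controls, 21.0 and 20.6 at 4 hours and 19.4 and 22.9 at 1 day, and it fell by 0.44 ± 0.13 and 0.41 ± 0.13 on the log2 scale (adjusted p = 0.0083 and 0.017); neither call held with factors from gene-end peaks, and each was lost without S1 (0.060 and 0.099), the first also without S3 or S4 (0.052 and 0.064) and the second without S2 or S5 (0.069 and 0.25). It is shown because of the peaks inside the gene, outside the rule for named genes.

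A peak at chr2:36035249-36036096, within 1 kb of the far end of Ndufa8, an accessory subunit, read 3.53 and 3.795 CPM in the controls and 5.35 to 8.63 in the treated libraries. It rose at 4 hours (1.11 ± 0.24, adjusted p = 0.00015), at 3 days (0.74 ± 0.25, 0.033) and with rosiglitazone (0.86 ± 0.24, 0.018). The call at 3 days was lost without S1, S2 or S7 (adjusted p = 0.14, 0.12 and 0.19) and that with rosiglitazone without S1, S2 or S10 (0.11, 0.086 and 0.17). The summed peaks of Ndufs3, a core subunit, rose at 3 days (0.56 ± 0.17, adjusted p = 0.038), a call that was lost without S1, S2 or S8 (0.14, 0.16 and 0.15) and, at 0.053 each, without S3, S4 or S9.

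Falls in complex I were smaller and lay at gene ends. At Ndufa13, an accessory subunit also known as GRIM-19, the peak at chr8:69902963-69903531, centred upstream of the start and also within 1 kb of Tssk6, read 31.1 and 38.0 CPM in the controls, 23.6 and 25.7 at 4 hours, 22.02 and 21.9 at 1 day, 21.5 and 18.99 at 3 days, and 23.8 and 26.7 with rosiglitazone. Both controls lay above all 8 treated libraries. It fell by 0.49, 0.66, 0.77 and 0.45 on the log2 scale (SE 0.13 each; adjusted p = 0.0025, 8.4e-05, 1.5e-05 and 0.02); the 4-hour call was lost without S2 or S3 (0.15 and 0.059) and the rosiglitazone call without S2, S9 or S10 (0.35, 0.22 and 0.052). Ndufs1, a core iron-sulfur subunit, has a gene-end peak at chr1:63176393-63177413 that overlaps the promoter entry of Eef1b2. Ndufs1 itself has no entry, and counts there cannot be split between both genes. At this peak the controls read 23.7 and 23.5 CPM, and the 4-hour and 1-day libraries 14.1 to 17.9. One 3-day library, S8, read 25.4 and the other 17.8, and rosiglitazone gave 13.2 and 18.1. The falls were 0.53 ± 0.15 at 4 hours, 0.67 ± 0.15 at 1 day and 0.59 ± 0.15 with rosiglitazone (adjusted p = 0.0044, 0.00043 and 0.0079); without S3 the first had adjusted p = 0.12, and without S1, S2 or S9 the last had 0.058, 0.059 and 0.27.

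Other named genes of this complex fell by their summed peaks. Ndufb3 fell by 0.48 at 4 hours and 0.62 at 1 day on the log2 scale. Its promoter peak overlaps the promoter entry of Fam126b, and its other peak lies within 1 kb of that gene. Counts there cannot be split between both genes. Ndufa6 fell by 0.31, 0.46 and 0.36 at 4 hours, 1 day and 3 days, and its promoter peak, the most open of the complex, read 119 and 119.8 CPM in the controls and 85.4 to 100.9 at 1 and 3 days. Ndufs7, a core iron-sulfur subunit, fell by 0.48 at 1 day and 0.39 at 3 days. Ndufv1, the flavoprotein that takes electrons from NADH, fell by 0.33 ± 0.10 at 1 day (adjusted p = 0.014). That call was lost without S1, S2 or S5, and its adjusted p reached 0.506 among the alternatives of processing. Adjusted p-values of the other calls lay between 0.00075 and 0.019. Without S2, the 1-day calls of Ndufb3, Ndufa6 and Ndufs7 held and their calls at 4 hours and 3 days did not.

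Assembly factors build complex I without staying in it. Of 8 genes, 3 fell at 4 hours, 2 at 1 day and 1 at 3 days. Over all genes 23.5%, 33.5% and 8.22% fell. With factors from gene-end peaks 0 were called. Ndufaf8 fell at each time, by 0.33, 0.42 and 0.30 (SE 0.09), and shares its promoter peak with Tepsin; the 4-hour call was lost without S1, S2 or S3 (0.064, 0.077 and 0.15), and the 3-day call (adjusted p = 0.044) was lost under most alternatives. Tested among peaks, the Ndufaf8 promoter peak had no call at 3 days. Ndufaf6 held 5 peaks, 2 of them too low to test. Its peak at chr4:11049103-11049437 read 2.62 and 4.21 CPM in the controls, 0.724 and 0.725 at 4 hours, 1.23 and 0.866 at 1 day, 0.472 and 0.791 at 3 days, and 1.44 and 1.36 with rosiglitazone, so that both controls stood above all treated libraries. It fell by 2.24 ± 0.47 at 4 hours (adjusted p = 0.00013), 1.71 ± 0.44 at 1 day (0.0026; 0.13 without S2 and 0.057 without S6) and 2.47 ± 0.49 at 3 days (0.00016).

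**Figure D4:**
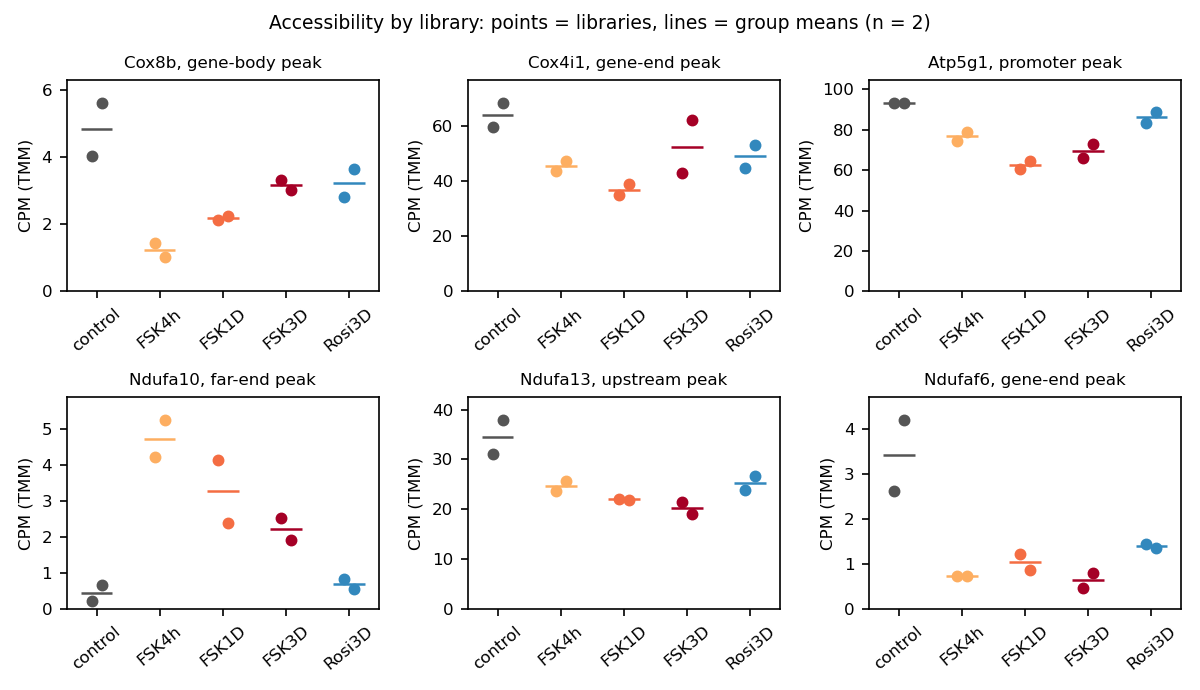
CPM (y axis, from 0) of 6 member peaks in each library (points) by group (x axis), with group means as lines (n = 2). The peak of Ndufa10 is highest at 4 hours, those of Ndufa13 and Ndufaf6 are highest in the controls, and that of Cox8b is lowest at 4 hours, at 1.45 and 1.03 CPM.

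Complex II, succinate dehydrogenase, links the citric acid cycle to the chain. Sdhb, the iron-sulfur subunit, had 48.1 and 50.3 CPM at its promoter peak in the controls, 35.6 and 38.2 at 4 hours, 36.0 and 35.6 at 1 day, 37.2 and 46.1 at 3 days, and 48.1 and 48.4 with rosiglitazone. It fell by 0.41 ± 0.12 at 4 hours and 0.46 ± 0.12 at 1 day (adjusted p = 0.0063 and 0.0033). Without S2 these had adjusted p = 0.071 and 0.057, and without S3 the first had 0.098. It was the 1 gene of 4 called by summed peaks at these times, where 23.5% and 33.5% of all genes fell. With factors from gene-end peaks 0 were called. For Sdha, the flavoprotein, the summed log2 fold changes were -0.22, -0.23 and -0.17 at the 3 times, and for Sdhd, a membrane anchor, -0.16, -0.25 and -0.21, with no call. Sdhc, the other anchor, had -0.37, -0.34 and -0.19 with no call over genes, while its single peak fell at 4 hours by 0.37 ± 0.14 when tested among peaks (adjusted p = 0.039), a call lost without S1, S2, S3 or S4 (0.095 to 0.19), with DESeq2 (0.12) and with factors from gene-end peaks (0.39).

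Complex III passes electrons from ubiquinol to cytochrome c. Of 8 genes, 2 fell at 4 hours and 4 at 1 day, where 23.5% and 33.5% of all genes fell. With factors from gene-end peaks 0 fell. Uqcrc2, a core protein, read 24.7 and 25.3 CPM in the controls and 19.4 and 18.1 at 4 hours at its gene-end peak, then 21.9 and 24.2 at 1 day. It fell by 0.42 ± 0.12 at 4 hours by summed peaks (adjusted p = 0.014), a call lost without S2, S3 or S4 (0.10, 0.062 and 0.097), and had a log2 fold change of -0.12 at 1 day. Uqcrfs1, the Rieske iron-sulfur protein, fell by 0.44 ± 0.14 at 1 day (adjusted p = 0.021), lost without S2 or S5 (0.19 and 0.18). The core protein gene Uqcrc1 had values of -0.03, -0.02 and 0.16 at the 3 times.

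Complex IV, cytochrome c oxidase, exchanges several subunits between tissues. Of 16 genes with peaks, 4 fell at 4 hours and 8 at 1 day, where 23.5% and 33.5% of all genes fell. With factors from gene-end peaks 2 and 3 fell. Cox8b, the isoform of muscle and brown fat, changed most. Its peak at chr7:140899237-140899551, centred 1052 bases downstream of the start and also within 1 kb of Psmd13, read 4.04 and 5.61 CPM in the controls (40 and 68 reads), 1.45 and 1.03 at 4 hours (22 and 17 reads), 2.12 and 2.24 at 1 day, 3.30 and 3.01 at 3 days, and 2.82 and 3.64 with rosiglitazone. Both controls stood above all treated libraries, and the 4-hour, 1-day and 3-day groups followed each other upward without overlap. It fell by 1.97 ± 0.34 at 4 hours (adjusted p = 4.2e-06) and 1.15 ± 0.31 at 1 day (0.0041; 0.14 without S2). By summed peaks the log2 fold change was -0.62 ± 0.29 at 3 days (adjusted p = 0.15) and -0.58 ± 0.29 with rosiglitazone (0.25). Cox8a, the broad isoform, had summed values of -0.18 at 4 hours, -0.29 at 1 day and -0.22 at 3 days. Tested among peaks, its single peak had no call at 1 day, while of the summed values the 1-day fall was called (adjusted p = 0.025). It lay near the median of all promoter peaks and was lost without S1, S2, S5 or S6. Among the alternatives of processing its adjusted p reached 0.765. The difference between both isoforms was not tested.

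Cox4i1, the broad form of a regulatory subunit, has its peak at chr8:120667668-120668779 over the gene end that faces Emc8, also within 1 kb of Emc8 and Gm27021. It read 59.7 and 68.4 CPM in the controls, 43.7 and 47.2 at 4 hours, 34.9 and 39.0 at 1 day, 42.9 and 62.0 at 3 days, and 44.8 and 53.1 with rosiglitazone. It fell by 0.50 ± 0.13 at 4 hours (adjusted p = 0.0016; 0.074 without S2), 0.80 ± 0.13 at 1 day (1.8e-06) and 0.39 ± 0.13 with rosiglitazone (0.048, lost without any 1 of 8 libraries, with adjusted p of 0.056 to 0.41). The first 2 calls held with factors from gene-end peaks. Cox4i2, its hypoxia-responsive counterpart, fell by 0.64 ± 0.20 at 4 hours by summed peaks (adjusted p = 0.022; lost without S1, S2, S3 or S4, at 0.055 to 0.14) and had -0.39 and -0.31 at 1 and 3 days. Cox5a, whose product binds the Cox4 subunit, held a gene-body peak at chr9:57525689-57525839 that rose by 1.18 ± 0.40 at 4 hours and 1.21 ± 0.40 at 1 day (adjusted p = 0.018 each). It read 1.61 and 1.16 CPM in the controls and 4.08, 2.17, 2.91 and 3.46 in these treated libraries, and the calls were lost without S2 or S3 (0.18 and 0.37) and without S2 or S6 (0.20 and 0.12).

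Among the remaining isoforms, Cox7a1, typical of heart, muscle and brown fat, had the highest log2 fold change of all member promoters at 1 day. Its promoter peak at chr7:30183873-30184600 read 8.68 and 7.26 CPM in the controls, 9.09 and 9.30 at 4 hours, 8.77 and 10.2 at 1 day, 10.5 and 9.58 at 3 days, and 10.2 and 9.51 with rosiglitazone. All 8 treated libraries lay above both controls, yet no comparison passed: the summed log2 fold changes were 0.21, 0.26, 0.34 and 0.31 (SE 0.18 each, adjusted p = 0.36, 0.24, 0.19 and 0.32). Cox7a2, the broad isoform, fell by 0.33 ± 0.13 at 1 day (adjusted p = 0.045, lost without any 1 of 8 libraries, at 0.053 to 0.23), and Cox7a2l, a factor in supercomplex formation, by 0.44 ± 0.12 (0.0078; 0.093 without S2 and 0.099 without S5). Cox6a1 fell by 0.48 ± 0.11 at 1 day (0.0024; 0.066 without S2). Cox6b1 read 11.2 and 14.4 CPM in the controls at its promoter peak and 7.18 to 9.90 in the 6 forskolin libraries, and it fell by 0.57, 0.64 and 0.54 at the 3 times (SE 0.18 to 0.19, adjusted p = 0.013, 0.0067 and 0.037). None of these 3 calls held without S2 (0.27, 0.22 and 0.42) or with factors from gene-end peaks (0.19, 0.18 and 0.24); the calls were also lost without S3 at 4 hours (0.16), S6 at 1 day (0.17), and S8 or S9 at 3 days (0.25 and 0.053). The falls of Cox6b1 were tested among peaks, and by summed peaks no complex IV gene was called at 3 days. The 1-day fall of Cox7a2 was called by summed peaks, while its single peak had no call when tested among peaks. Cox6b2, the testis isoform, and Ndufa4, an associated subunit, had no call against control.

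**Figure D5:**
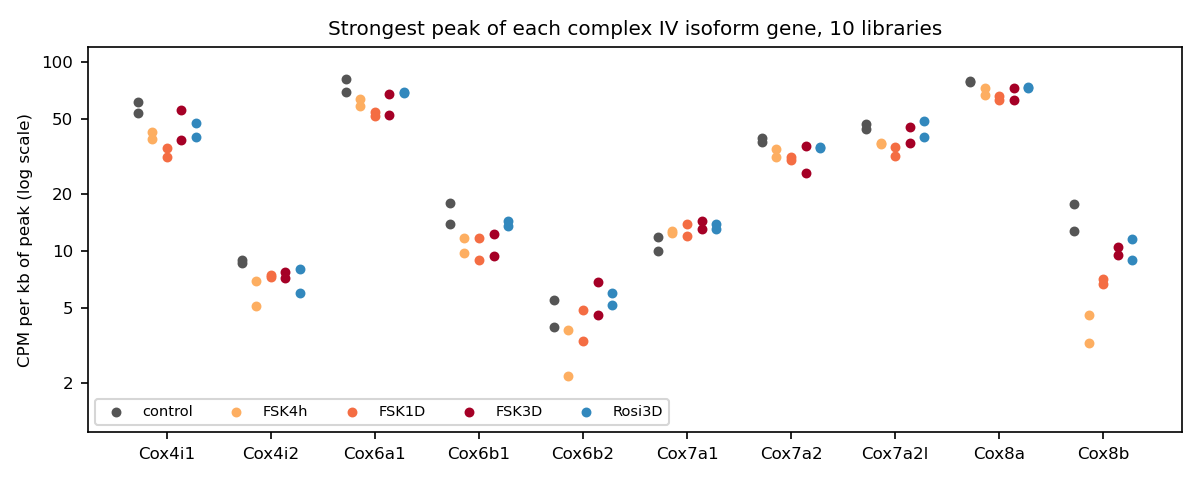
CPM per kb of peak (log scale, y axis) of the strongest peak of 10 complex IV genes (x axis) in each of the 10 libraries, coloured by group. Cox8b spans the widest range, Cox7a1 is lowest in the controls, and Cox8a, Cox6a1 and Cox4i1 are the most open.

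Complex V is the ATP synthase. Of its 17 genes, 3 fell at 4 hours, 9 at 1 day and 2 at 3 days. Over all genes 23.5%, 33.5% and 8.22% fell. With factors from gene-end peaks 0, 1 and 1 fell. The proton-driven ring of c subunits is encoded by 3 genes with the same mature protein. Atp5g1 has its promoter peak at chr11:96075380-96076153, with 93.1 and 93.4 CPM in the controls, 74.5 and 79.1 at 4 hours, 60.7 and 64.7 at 1 day, 66.1 and 73.0 at 3 days, and 83.4 and 88.9 with rosiglitazone. The controls lay above all treated libraries and the rosiglitazone libraries above all forskolin libraries. Tested among peaks, Atp5g1 was called at 1 day and at 3 days but not at 4 hours. By its summed peaks it fell by 0.28 ± 0.09 at 4 hours (adjusted p = 0.025), 0.57 ± 0.09 at 1 day (0.00022) and 0.43 ± 0.09 at 3 days (0.0075; 0.089 without S2), with the 4-hour call lost without S1, S2, S3 or S4 (0.070 to 0.19), and the later 2 calls held with factors from gene-end peaks. Atp5g2 fell by 0.32 at 4 hours (lost without S2, S3 or S4, at 0.050 to 0.11) and 0.33 at 1 day (lost without S2 or S5, at 0.075 and 0.091), and its promoter peak, at chr15:102670761-102671437, read 74.1 and 74.9 CPM in the controls and 48.1 to 65.7 in the treated libraries. That peak also fell by 0.36 ± 0.12 with rosiglitazone (adjusted p = 0.047), a call lost without any 1 of 8 libraries (0.063 to 0.38). A weak peak inside Atp5g2 at chr15:102662766-102662929 fell by 1.48 ± 0.52 at 4 hours (0.023) on 9 and 12 reads against 17 and 24, and missed the threshold without S2, S3 or S4 (0.13, 0.13 and 0.064). Atp5g3 fell by 0.53 ± 0.14 at 1 day (0.0072; 0.25 without S2 and 0.11 without S5). Atp5j2, subunit f, fell by 0.48 ± 0.11 at 3 days (0.014; 0.16 without S2 and 0.097 without S7), with 29.0 and 31.2 CPM in the controls and 20.5 and 22.9 at 3 days. Atp5b, the catalytic beta subunit, fell by 0.28 ± 0.08 at 1 day (adjusted p = 0.014), near the median of all promoter peaks. The call was lost without S2 or S5, and its adjusted p reached 0.768 among the alternatives of processing. Atp5a1, the alpha subunit, had -0.24 ± 0.17 at 1 day with no call.

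Forskolin and rosiglitazone, both given for 3 days, were compared directly. Of 134 member peaks, 6 were higher and 6 lower with forskolin, where 12.9% of all peaks were higher and 8.84% lower; of 71 promoter peaks, 5 were lower, against 6.09% of all promoter peaks. By summed peaks 3 of 89 genes were lower, where 5.84% of all genes were lower and 5.02% higher. Cox7c, a small complex IV subunit, was lower by a log2 fold change of -0.47 ± 0.12 (adjusted p = 0.01), with 23.0 and 21.2 CPM against 31.3 and 30.3 at its promoter peak, outside each other's range. It missed the threshold without S9 or S10 (0.12 and 0.055). Atp5j2 (-0.39 ± 0.11, 0.025) and Atp5g1 (-0.31 ± 0.09, 0.029) were lower, both lost without S7, S9 or S10 (0.12 to 0.17 for Atp5j2 and 0.095 to 0.23 for Atp5g1). So was the Atp5g3 promoter peak (-0.43 ± 0.14, 0.015; 0.14 and 0.24 without S7 or S10), and the weak peak inside Atp5g2 read 0.530 and 1.11 CPM against 1.86 and 3.21 (-1.67 ± 0.48, 0.0074; 0.17 and 0.21 without S7 or S10). The promoter peak of Ndufc2, an accessory subunit, differed by -0.56 ± 0.21 (0.045; 0.43, 0.19 and 0.13 without S7, S9 or S10). The peak at the far end of Ndufa10 described above was higher with forskolin (1.70 ± 0.43, 0.0022; 0.052 and 0.058 without S7 or S10), as were a peak inside Ndufs3 at chr2:90896087-90896452 (1.27 ± 0.39, 0.013; 0.10 and 0.21 without S7 or S10) and one inside Atp5g2 at chr15:102663803-102664443 (0.64 ± 0.20, 0.016; 0.61 and 0.13 without S7 or S10). Without S7, S8, S9 or S10, 4, 24, 6 and 3 peaks were called in place of 12, and without S8, S9 or S10, 19, 0 and 1 genes in place of 3.

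The later against the earlier forskolin time, 3 days against 4 hours, was tested after the time course had been seen. Of 134 member peaks 4 were higher and 2 lower at 3 days, where 4.34% of all peaks were higher and 6.78% lower. By summed peaks 1 of 89 genes, Cox8b, was higher, where 2.27% of all genes were higher and 2.72% lower. The Cox8b peak was higher by 1.36 ± 0.35 (adjusted p = 0.0053; 0.10 without S4), while the Ndufa10 peak was lower by a log2 fold change of -1.08 ± 0.34 (0.024; 0.063, 0.21 and 0.19 without S3, S4 or S8). Cox6b2 had 3.49 and 1.99 CPM at 4 hours and 4.18 and 6.25 at 3 days (0.92 ± 0.28, 0.023; 0.35 and 0.31 without S4 or S8). Without S3, S4, S7 or S8, 3, 1, 11 and 2 peaks were called in place of 6, and without S3, S4 or S7, 0, 0 and 8 genes in place of 1.

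Genes of the same pathway outside the symbol rule were taken from a written list. One part of it held 44 genes for assembly and related steps of complexes I to V, outside the Ndufaf symbols. Of these 44, 8 fell and 3 rose at 4 hours. At 1 day 23 fell and 1 rose, and at 3 days 1 fell. Over all genes 23.5%, 33.5% and 8.22% fell at the 3 times and 7.89%, 6.1% and 2.95% rose. With factors from gene-end peaks the fallen and risen became 1 and 7, 3 and 3, and 0 and 1, so that the balance turned at 4 hours. The median of all peaks moved up under those factors, as described above. Shares of all genes under them are not given here. Nubpl, an iron-sulfur protein for complex I, rose by 0.49 ± 0.11 at 4 hours (adjusted p = 0.0025), with 71.9 and 60.3 CPM against 50.7 and 43.6, and Cox16 rose by 0.43 ± 0.12 (0.011). Tmem126b, another complex I factor, fell by 0.57 ± 0.11 (0.0011). Of 15 tested genes of the electron carriers and coenzyme Q synthesis, 2, 5 and 1 fell at the 3 times and 0 rose, where 23.5%, 33.5% and 8.22% of all genes fell. With factors from gene-end peaks 1 fell and 1 rose, then 0 fell and 2 rose, then 0 were called, so that the direction at 1 day turned. Cytochrome c (Cycs) had 0.01, -0.21 and -0.08 with no call. Of 19 regulators of mitochondrial genes, 3 fell and 3 rose at 4 hours, 11 fell and 2 rose at 1 day, and 2 fell and 2 rose at 3 days, beside the same shares of all genes that fell and 7.89%, 6.1% and 2.95% that rose. With factors from gene-end peaks these became 0 fallen and 5 risen, 4 and 4, and 0 and 3. Gabpa in this list rests on the peak it shares with the member Atp5j, so that peak is counted in both sets. Ppargc1a, the coactivator of mitochondrial biogenesis, rose by 0.41 ± 0.06 (9.9e-05), 0.39 ± 0.06 and 0.32 ± 0.06, and by 0.36 ± 0.06 with rosiglitazone (0.003). Nrf1 and Esrra, which encode factors that bind members' promoters, fell by 0.40 ± 0.09 (0.0027) and 0.48 ± 0.09 (0.0007) at 1 day. The paralogs of Esrra read higher than in the controls. Esrrg had 94.6 and 91.2 CPM in the controls, 124.6 and 120.8 at 4 hours and 106.0 and 104.3 at 1 day. Esrrb had 8.07 and 7.92 CPM, then 12.4 and 12.6, then 13.1 and 13.5. How the calls of Nrf1 and Esrra depend on scaling and on single libraries is not given here.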

How the data were processed

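The deposited table gives raw read counts per peak, 1 column per library, which the authors made with Bowtie2, MACS2, featureCounts, fastp, Picard, SAMtools and deepTools on GRCm38/mm10, per the submitters' processing notes; versions, the handling of duplicates and of the transposase offset, and whether peaks were called on pooled reads are not given in the sources used here. Peaks were placed on RefSeq gene bounds and promoter entries (GRCm38.p6). Counts of all 122984 peaks, and counts summed per protein-coding gene, were fitted over the 10 libraries with edgeR 4.0.16 (TMM, filterByExpr, robust quasi-likelihood F test, R 4.3.3) and adjusted over all 118962 peaks or 16244 genes tested; SEs are the log2 fold change divided by the root of F. Alternatives were library size alone, trended offsets, TMM from gene-end peaks, DESeq2 1.42.0, no filter, only the groups compared, no window around genes, promoter peaks only and each library left out. The fit was tested on simulated data. The members and lists were chosen with earlier results of these data known, and forskolin at 3 days against 4 hours was added after seeing them. Named were, per comparison, up to 8 called genes by adjusted p and up to 6 called peaks by fold (groups not overlapping, 1 per gene) in each direction, plus isoform pairs, core subunits and the extremes of printed ranges; other members appear as holders of a motif or a shared peak, and further peaks of a named gene were picked with their values in view. Results of 1 member are not reported here, though counts over the members include it.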

Additional observations from a re-analysis of the deposited data

Results flagged for a closer look

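At 6 results the forskolin response differed between times, by the direct test of 3 days against 4 hours (edgeR's quasi-likelihood test, n = 2 libraries each, log2 fold changes). The Ndufa10 peak changed by -1.079, so it was lower at 3 days after having risen at 4 hours. The Cox8b peak changed by 1.355 and the Cox8b gene, which rests on that 1 peak, by 1.357. The peak at Cox6b2 changed by 0.9183. In Ndufaf6, the peak at chr4:11065372-11065580 changed by 2.846, on 1 and 3 reads at 4 hours against 9 and 18 at 3 days, and the peak at chr4:11075710-11076532 by 0.4472. Each call was lost without S4 (adjusted p = 0.10 to 0.35). This comparison was added after the data had been seen.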

How the results depend on the processing

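The counts of called members depended on the scaling and on single libraries more than on the filter. No paired analysis was possible because the columns carry running numbers, not the labels' replicate numbers. In each group below the comparisons are 4 hours, 1 day, 3 days and rosiglitazone against control, 3 days of forskolin against rosiglitazone, and 3 days against 4 hours. Called peaks numbered 28, 41, 14, 5, 12 and 6 in the main fit. For the alternatives of processing, only counts more than 1.5-fold from the main count, or with 0 on 1 side, are printed. With library size alone they were 18 at 4 hours (8 up, 10 down), 25 at 1 day (6 up, 19 down) and 2 with rosiglitazone. Trended offsets gave 17 at 1 day (6 up, 11 down) and 7 at 3 days. TMM from gene-end peaks gave 13 (9 up, 4 down), 17 (7 up, 10 down) and 9 (5 up, 4 down) at the 3 times. DESeq2 gave 0 (rosiglitazone), 7 and 2 in the last 3 comparisons. A fit of only the groups compared gave 7 at 3 days, and leaving out the window gave 3 with rosiglitazone. Called genes numbered 19, 38, 7, 0, 3 and 1. With library size alone they were 11 (4 hours), 17 (1 day), 2 (rosiglitazone), 6 (3 days of forskolin against rosiglitazone) and 3 (3 days against 4 hours). Trended offsets gave 6 (4 hours), 12 (1 day), 2 (rosiglitazone) and 2 (3 days against 4 hours). Gene-end TMM gave 4 at 4 hours (2 up, 2 down), 11 at 1 day (2 up, 9 down), 2 (rosiglitazone) and 2 (3 days against 4 hours). DESeq2 gave 1 (rosiglitazone). A fit of only the groups compared gave 29 (4 hours), 0 (3 days), 5 (rosiglitazone), 1 (3 days of forskolin against rosiglitazone) and 0 (3 days against 4 hours). Promoter peaks only gave 9 (4 hours), 0 (3 days), 1 (3 days of forskolin against rosiglitazone) and 0 (3 days against 4 hours). Leaving out 1 library gave ranges of 8 to 36, 15 to 53, 4 to 37, 0 to 6, 3 to 24 and 1 to 11 peaks, and 1 to 27, 10 to 48, 0 to 36, 0 to 6, 0 to 19 and 0 to 8 genes. Of 174 single calls, 105 held with library size alone, 82 with trended offsets, 69 with gene-end TMM, 136 with DESeq2 and 174 without the filter; 2 changed sign, both with trended offsets: the Atp5b promoter peak at 1 day (0.022) and the Ndufa6 promoter peak at 4 hours (0.0083). The cause of these shifts was not tested. Depth limits the weak peaks: at Ndufa10 the controls held 2 and 8 reads.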
